A study of Rattus norvegicus with 34 samples.

Results

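The 3 arrays described here came from the testes of 3 of the 5 male rats fed propiconazole at 2500 ppm, P2500 replicates 02, 03 and 04. They were chosen by their own measured values, because liver genes such as Alb, Serpina1, Ttr, Cyp2c11 and Fgb were high on them. What sets them apart from the 28 other arrays with values is therefore given as a description, with no test. Of 34 labelled samples 31 had values, and T1800 01, M500 03 and Control 01, which the labels leave out of the study's final set, were not analysed here.

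The series measured total RNA from the testes of Wistar Han IGS rats on Affymetrix Rat 230 2.0 arrays, 1 rat to an array. Triazoles, fungicides that inhibit a fungal cytochrome P450, were fed to them beginning on gestation day 6 and ending on postnatal day 92, when the testes were taken. The 28 other arrays held P2500 replicates 01 and 05, 4 arrays of propiconazole at 500 ppm (P500), 4 of triadimefon at 1800 ppm (T1800), 4 of triadimefon at 500 ppm (T500), 5 of myclobutanil at 2000 ppm (M2000), 3 of myclobutanil at 500 ppm (M500) and 6 of the 0 ppm diet (Control, replicates 02 to 07). Litters were not given, so replicates may include littermates, and the shared protocol covers RNA of liver as well as testis.

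Hepatocytes, the main cells of the liver, secrete most plasma proteins, among them albumin, clotting factors and carriers of fats and hormones, and hold cytochrome P450 enzymes that clear drugs and steroids. In the adult male rat, the pulsed release of growth hormone sets a male pattern of these enzymes, with CYP2C11 as its best known member. In the testis, most RNA comes from germ cells, from spermatogonia through spermatocytes to spermatids, beside Sertoli cells that nurse them and Leydig cells that make testosterone.

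Several of the genes that set the 3 arrays apart carry textbook sites for liver transcription factors just before their start, and 5 are printed here because they hold such a match and are described below. They were chosen by their HNF1, FOXA or HNF4 motifs, so leading genes without one of these, such as Cyp2c11 and Fgb, are not shown. Fgb does hold the looser C/EBP motif counted below. Each sequence is the 250 bases upstream of the gene's start, from RefSeq on build GRCr8, read 5′ to 3′ on the gene's strand. Capitals mark matches, on either strand, to HNF1 (GTTAATNAT), FOXA (TGTTTGC) and HNF4 (CAAAGTCCA) motifs. The Alb window (chr14:17906980-17907229, minus strand) and the Gc window (chr14:18916005-18916254, plus strand) hold the HNF1 motif 82 and 194 bases before the start, and Alb also has the FOXA motif on the opposite strand. The Plg window (chr1:50915407-50915656, minus strand) has the HNF1 motif on the opposite strand 70 bases before the start and the FOXA motif at 110. The Cyp3a2 window (chr12:14343858-14344107, minus strand) and the Cyp3a23-3a1 window (chr12:14398804-14399053, minus strand) share the HNF4 motif, 97 and 110 bases before their starts.
Alb: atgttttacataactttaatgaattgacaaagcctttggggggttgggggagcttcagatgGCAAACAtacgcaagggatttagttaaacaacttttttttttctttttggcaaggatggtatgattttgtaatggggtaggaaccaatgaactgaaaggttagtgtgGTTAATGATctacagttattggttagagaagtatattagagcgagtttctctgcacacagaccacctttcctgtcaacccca
Gc: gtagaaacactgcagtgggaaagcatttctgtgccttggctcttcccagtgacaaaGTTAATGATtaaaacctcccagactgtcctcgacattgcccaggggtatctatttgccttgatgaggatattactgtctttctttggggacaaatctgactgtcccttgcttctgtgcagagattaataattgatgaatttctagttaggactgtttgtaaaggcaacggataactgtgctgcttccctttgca
Plg: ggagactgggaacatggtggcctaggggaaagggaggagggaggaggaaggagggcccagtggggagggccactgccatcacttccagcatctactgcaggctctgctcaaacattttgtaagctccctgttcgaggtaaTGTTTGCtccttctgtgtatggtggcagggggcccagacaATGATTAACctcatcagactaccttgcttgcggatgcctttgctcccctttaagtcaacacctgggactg
Cyp3a2: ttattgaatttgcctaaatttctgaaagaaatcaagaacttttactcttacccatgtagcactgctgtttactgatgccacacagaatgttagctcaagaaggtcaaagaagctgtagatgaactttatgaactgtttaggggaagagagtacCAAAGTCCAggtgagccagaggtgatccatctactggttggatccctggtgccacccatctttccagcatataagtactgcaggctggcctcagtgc
Cyp3a23-3a1: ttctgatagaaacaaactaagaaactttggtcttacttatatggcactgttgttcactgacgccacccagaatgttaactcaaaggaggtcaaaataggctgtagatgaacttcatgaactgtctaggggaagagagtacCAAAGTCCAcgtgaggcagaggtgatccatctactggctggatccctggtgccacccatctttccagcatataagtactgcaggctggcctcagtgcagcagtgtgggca

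The HNF1 motif was in the window of 11 of the 238 set genes with a RefSeq promoter (4.62%), against 0.747% of all 27457 promoters of the same length and 0.496% of the 11700 of genes measured on the arrays. The HNF4 motif was in 6 of the 238 (2.52%), against 0.393% of all and 0.359% of measured genes. The FOXA motif was in 21 (8.82%), against 4.49% of all and 3.32% of measured genes. A looser C/EBP motif (TTGCNNAA) was in 21%, against 9.99% of all and 8.62% of measured genes. The TATA letters TATAAA were in 16%, against 14.1% of all and 8.62% of measured genes, so for these letters the difference depends on the background taken. The 3 liver motifs did not overlap in the windows printed, and a match describes letters in a window, not a bound site.

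The deposited values are scores on a log-like scale whose base is not stated, with array medians between -0.0091 and 0.0558. The highest score lay between 3.885 and 5.776 on 29 arrays, with 8.21 on Control 02 and 8.394 on M500 04. Scores were therefore set to a common distribution by quantile normalization, differences are given in score units, and no fold is computed. Over all pairs of arrays the correlation was 0.947 to 0.998, across probe sets. For each probe set, the gap is the lowest of the 3 scores minus the highest of the 28, and a positive gap puts all 3 arrays above. A hybridisation control of low concentration, bioB, is used below as a mark of measurable signal, and the actin gap, the score of the 3′ end of beta-actin minus that of its 5′ end, as a sign of RNA quality.

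On the 3 arrays, 349 of 31042 probe sets (1.12%) had all 3 scores above the other 28, 16 (0.0515%) had all 3 below, and 28290 (91.1%) had all 3 inside the range of the 28. Since these counts follow from the choice of arrays, they are a description. Of the set above, 321 probe sets carried a single gene symbol and named 292 genes, while 13 carried several symbols and 15 carried none. Of these genes, 170 stood on the liver lists described below and 117 on none of the 40 lists. The gap was at least 0.1 in 203 probe sets, at least 0.5 in 81 and at least 1 in 34, and the low end reached the threshold itself: the median gap was 0.16.

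The 5 named markers were all in the set. Albumin (Alb), the main plasma protein, scored 4.15, 3.89 and 3.91 on P2500 02, 03 and 04, 0.062 and -0.12 on P2500 01 and 05, and a median of 0.56 (-0.12 to 2.29) over the 28 others. Alpha-1-antitrypsin (Serpina1), a protease inhibitor of plasma, scored 2.00, 1.96 and 1.91, against 0.086 and -0.057 on P2500 01 and 05 and a median of 0.088 (-0.057 to 0.39) over the 28. Transthyretin (Ttr), a carrier of thyroid hormone and retinol, scored 1.97, 2.16 and 2.10, against -0.10 and -0.057 on P2500 01 and 05 and a median of 0.025 (-0.13 to 0.50) over the 28. In all 3 genes the 3 arrays lay together and apart from the rest, and the other pair of the same dose lay at or below the median of the 28. The male steroid hydroxylase Cyp2c11 scored 1.76, 1.75 and 1.68, against -0.26 and -0.25 on P2500 01 and 05 and a median of -0.22 (-0.33 to 0.17) over the 28. Fibrinogen beta (Fgb), a chain of the clot protein, scored 1.14, 1.10 and 1.15, against -0.25 and -0.27 on P2500 01 and 05 and a median of -0.11 (-0.40 to 0.062) over the 28. Serpina1, Ttr, Cyp2c11 and Fgb were above bioB on all 3 arrays and on none of the 28, whereas Alb was above it on 11 of the 28, 4 of 6 Control arrays among them.

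**Figure D1:**
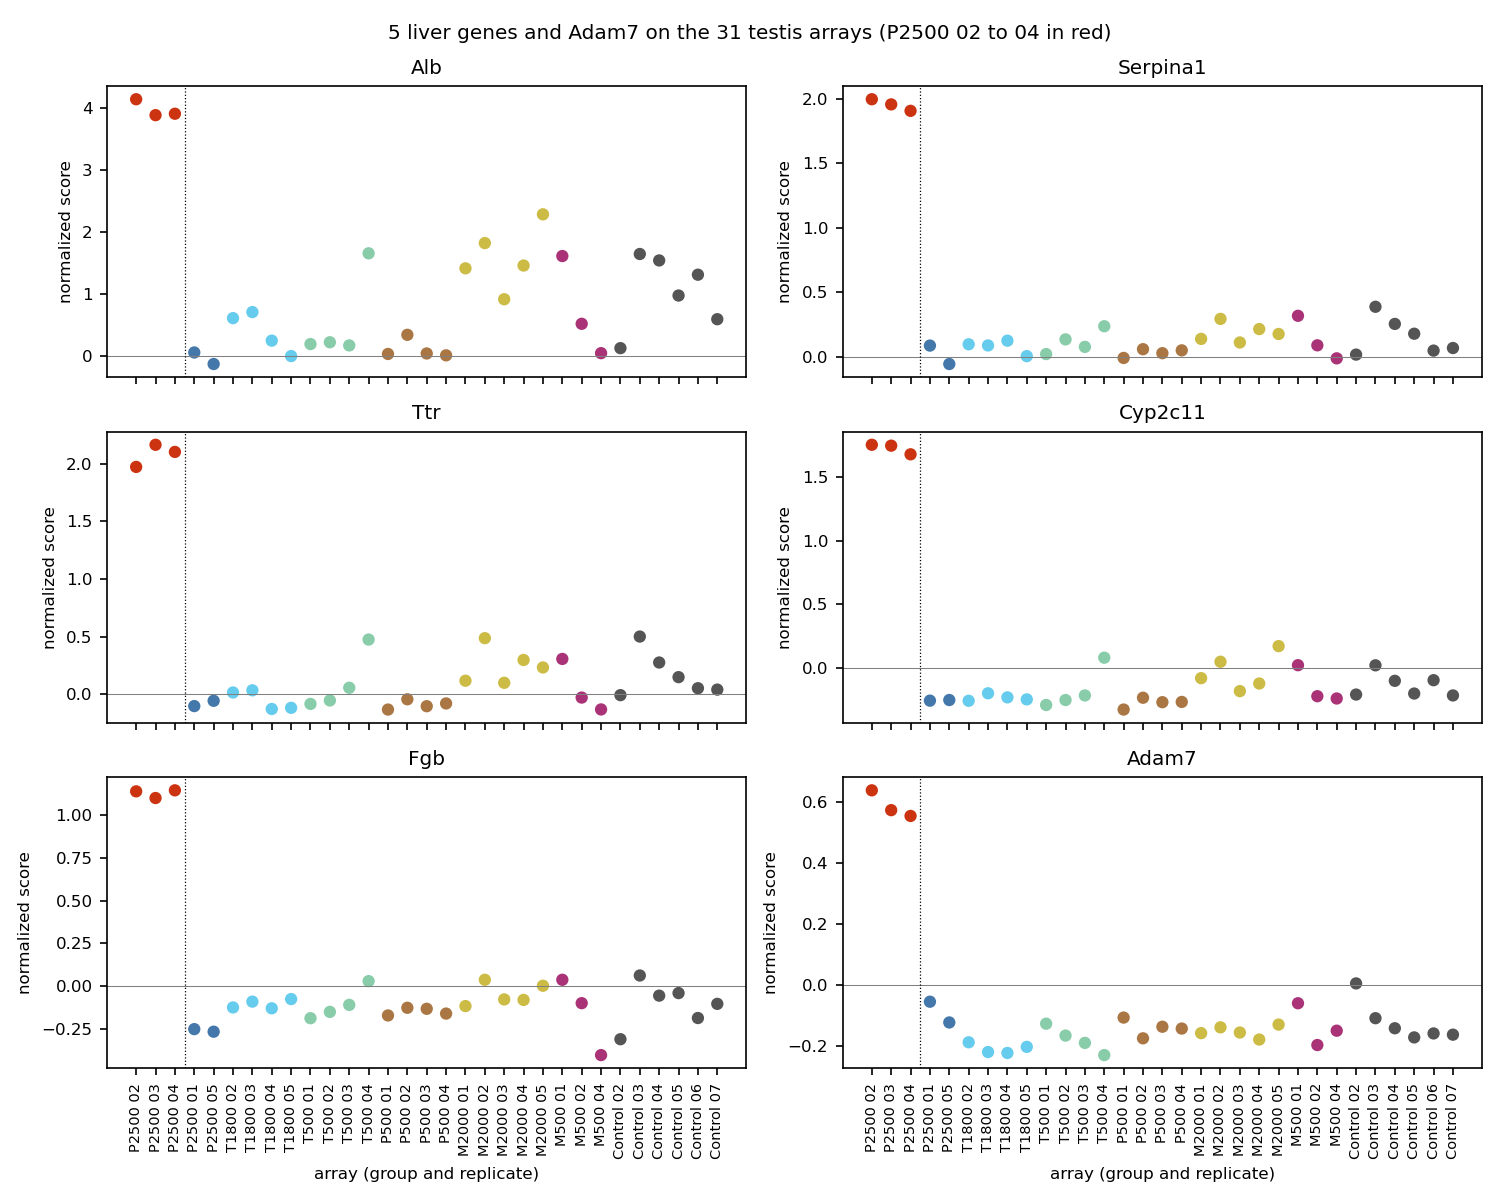
Normalized scores (vertical axis) of the 5 liver markers and of Adam7 on each of the 31 arrays, 1 point to an array, coloured by group. P2500 02 to 04, in red, sit above all 28 others in every panel, and Alb ranges from -0.12 to 2.29 over the 28.

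The 20 genes of largest gap, from 1.12 to 1.85, were all on the liver lists apart from Rup2, Serpina3l and Pzp. Rup2, which encodes a urinary protein of the rat, led with 2.96, 3.09 and 3.03, against -0.25 and -0.53 on P2500 01 and 05 and a median of -0.10 (up to 1.11) over the 28. All 4 Rup2 probe sets were in the set, some of them of the kind that may also read related sequences. The next were the serpins Serpina3l (1.75, 1.67 and 1.66) and Serpina3c (1.82, 1.71 and 1.70), and the central complement protein C3 (1.89, 1.71 and 1.65). Their highest scores among the 28 were 0.041, 0.107 and 0.105. The widest gap of all, 2.11, belonged to a probe set with several symbols, which is left unnamed.

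**Figure D2:**
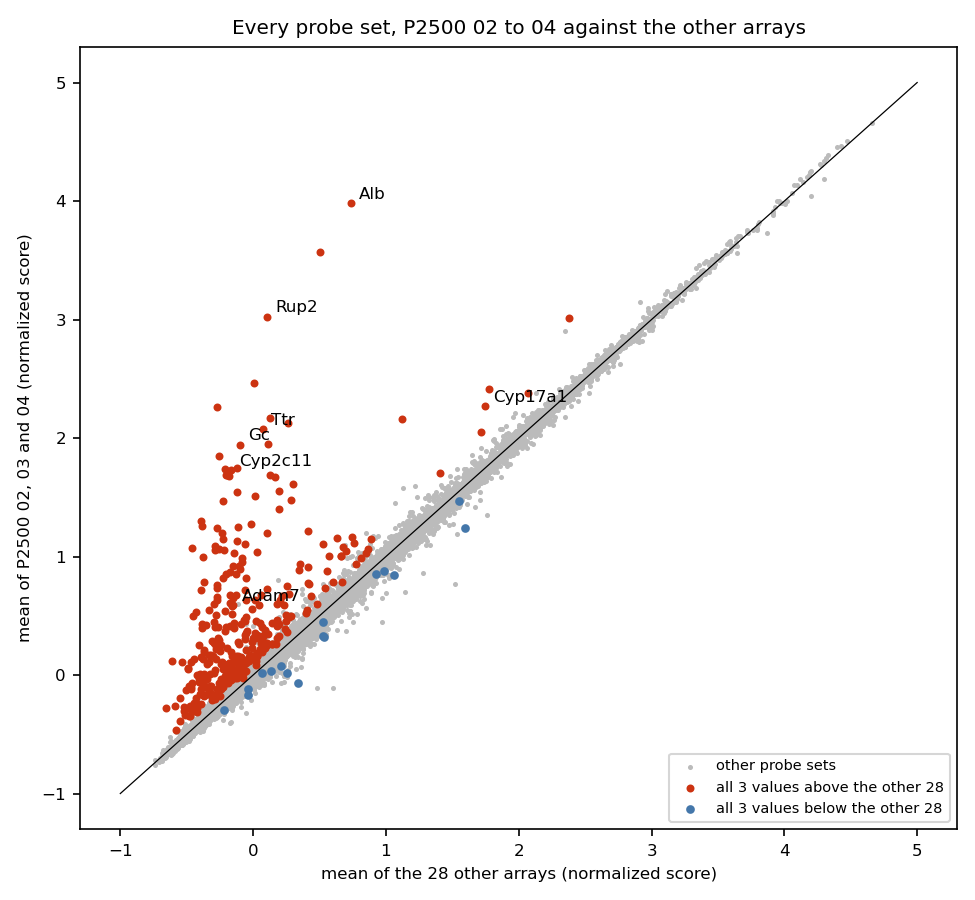
Mean score on the 3 arrays (vertical axis) against the mean over the 28 others (horizontal axis) for 31042 probe sets. The line marks equal means, the 349 probe sets of the set lie above it and the 16 below all others lie under it.

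Carriers and other binding proteins of plasma were above in 23 of 27 measured genes, with a median difference (mean of the 3 minus mean of the 28) of 0.93, against -0.006 over all probe sets. The vitamin D carrier Gc scored 2.10, 1.88 and 1.86, against at most 0.35 on the 28. Haemopexin (Hpx), which binds free haem, scored 1.53, 1.59 and 1.55, against at most 0.41. The fetal Alb relative Afp (-0.28, -0.33 and -0.33) and the broad protease trap A2m (0.83, 0.68 and 0.72) stayed inside the range of the 28. The mean of this list was 1.04, 1.01 and 0.99 on the 3 arrays, against -0.007 to 0.043 on P2500 01 and 05 and 0 to 0.21 on Control arrays.

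Serpins and acute phase proteins were above in 13 of 15 genes (median difference 0.37), and clotting and fibrinolysis genes in 15 of 16 (0.54). C-reactive protein (Crp) scored 1.15, 1.41 and 1.27, against at most 0.15 on the 28, whereas Lbp, which binds bacterial lipopolysaccharide, and the iron-scavenging lipocalin Lcn2 stayed inside. Fibrinogen alpha (Fga) scored 1.05, 0.98 and 0.96, against at most -0.18, and antithrombin (Serpinc1) 1.22, 1.14 and 1.07, against at most -0.014. Plasminogen (Plg), the precursor of the enzyme that dissolves clots, scored 1.01, 0.90 and 0.86, against at most -0.024. The one clotting gene inside the range was Pros1, the anticoagulant protein S, at 0.38, 0.31 and 0.24.

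Complement genes made by hepatocytes were above in 11 of 16 (median difference 0.20). The terminal component C9 scored 0.40, 0.45 and 0.47, against at most -0.036. C1r and C1s, proteases that start the classical pathway, were inside, and their scores on the 28 reached 1.06 and 1.23. Apolipoproteins and lipid carriers were above in 16 of 19 genes (0.33). Apob, the backbone of very-low-density lipoprotein, scored 1.15, 0.99 and 0.95, against at most 0.030, and Apoa1, that of high-density lipoprotein, 0.94, 0.89 and 0.86, against at most 0.008.

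Cytochrome P450 genes were above in 20 of 31 (median difference 0.45). Cyp3a2 scored 1.91, 1.87 and 1.76, against at most 0.22, and its neighbour Cyp3a23-3a1 1.39, 1.22 and 1.17, against at most 0.031. Cyp2c6v1 scored 1.68, 1.72 and 1.65, against at most 0.11. These enzymes hydroxylate steroids and drugs, and members of such families share sequence, so probe sets may read more than 1 of them. Cyp2d4 and the oxysterol hydroxylase Cyp7b1 stayed inside the range. Conjugation and other drug metabolism genes were above in 12 of 32 (0.15): Ugt2b, a glucuronosyltransferase, scored 1.19, 1.01 and 1.02, against at most -0.27, while Gstm1, Aldh1a1 and Adh1c were inside, with medians of 2.03, 1.67 and 1.83 on the 28.

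Of hepatocyte transporters and bile acid genes, 13 of 23 were above (median difference 0.18). Baat, which conjugates bile acids to glycine and taurine, scored 0.55, 0.52 and 0.46, against at most -0.20. Slc10a1, which takes bile acids up from blood, scored 0.23, 0.11 and 0.064, against at most -0.36. Amino acid and urea cycle genes were above in 21 of 35 (0.15). The tyrosine catabolic enzyme Hpd scored 0.92, 0.81 and 0.83, against at most -0.090, and the tryptophan dioxygenase Tdo2 0.58, 0.52 and 0.49, against at most -0.30. Arg1, the last enzyme of the urea cycle, scored 0.63, 0.48 and 0.39, against at most -0.29, whereas Asl, an earlier step, was inside at 1.48, 1.41 and 1.45.

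Carbohydrate and fuel genes were above in 8 of 18 (median difference 0.11). Pck1, which commits carbon to glucose synthesis, scored 0.70, 0.45 and 0.48, against at most -0.18. Fbp1, another enzyme of glucose synthesis, was inside the range at 2.91, 2.79 and 2.81, against a median of 2.80 over the 28. Hormone, receptor and growth factor genes were above in 8 of 20 (0.089), with the growth hormone receptor Ghr at -0.18, -0.30 and -0.32, against at most -0.43. Igf1, the growth factor it induces in liver, scored 1.44, 1.68 and 1.62, against up to 1.62 on the 28, and another Igf1 probe set was above by 0.016.

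Transcription factors of hepatocytes formed the liver list with the fewest members above, 1 of 17, with a median difference of 0.026. The exception was Creb3l3, a membrane-bound factor of liver and gut, at 0.30, 0.33 and 0.32, against at most 0.27. Foxa2, Onecut1 and Nr1h3 had some of the 3 scores above the 28 and some not, and Nr1i2 and Nr1i3, which encode PXR and CAR, were inside the range. Hnf4a, a master factor of hepatocytes chosen after its values were seen, was inside by its brighter probe set (-0.032, 0.009 and 0.028, against -0.096 to 0.051). By a dimmer one it was above, at 0.11, 0.023 and -0.018, against at most -0.13. Cebpa likewise was inside by its brighter probe set and above by 0.046 by another. The count of each list uses the brightest probe set of each gene. Over the 15 liver lists together, 164 of 279 genes were above, none was below and 78 were inside.

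**Figure D3:**
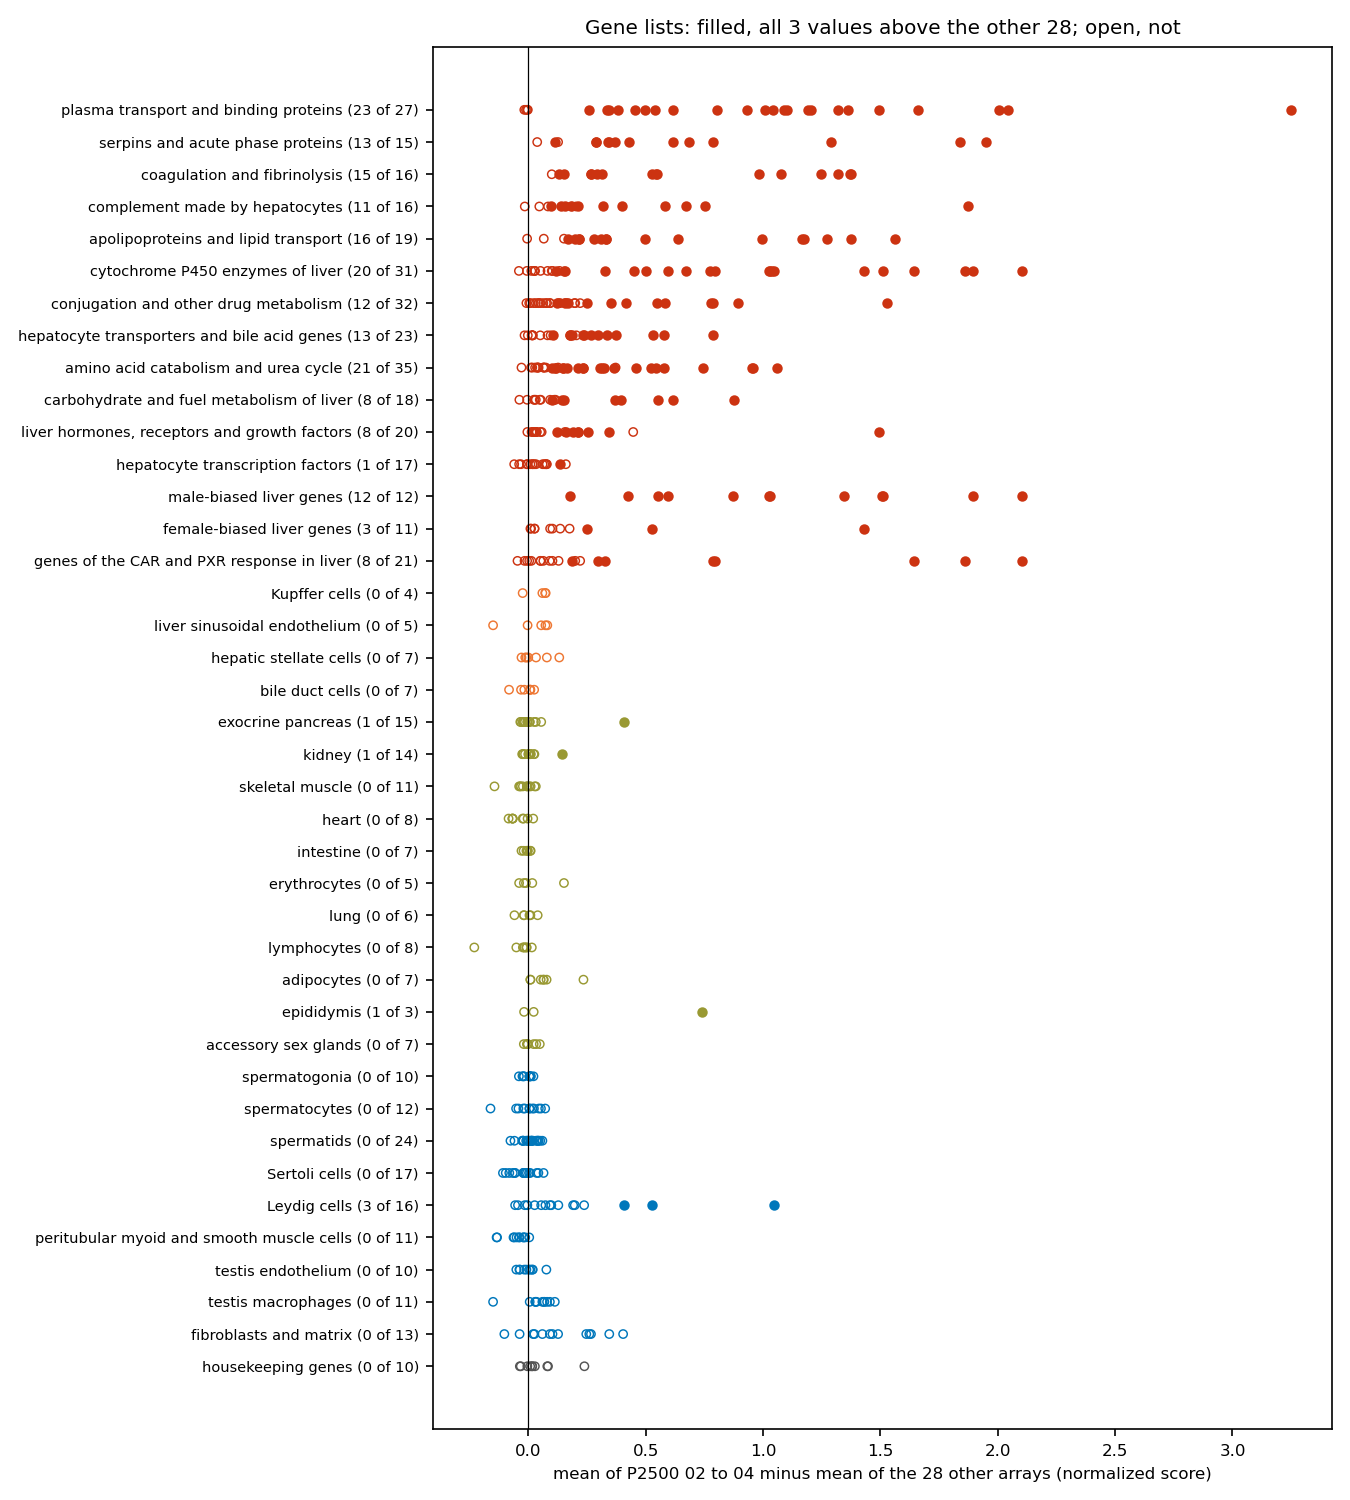
Mean of the 3 arrays minus mean of the 28 others (horizontal axis, normalized score) for each gene of the 40 lists (rows), filled where all 3 scores were above the 28. Differences in the liver rows run from -0.060 to 3.25, with all 12 male-biased genes filled, while germ cell, Sertoli and housekeeping rows hold no filled point.

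All 12 measured genes of the male-biased liver list were above, with a median difference of 1.03. They included Car3, a carbonic anhydrase, at 1.72, 1.71 and 1.60 (at most 0.63 on the 28), and Obp3, of the lipocalin family, at 1.06, 1.11 and 1.01 (at most 0.105). Of the 11 female-biased genes, 3 were above, Cyp2c7, Akr1c14 and Cyp17a1, of which Cyp17a1 is also a Leydig cell gene. The female steroid disulfate hydroxylase Cyp2c12 scored -0.47, -0.46 and -0.39, inside the range of the 28 (-0.54 to -0.28).

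The receptors CAR and PXR switch on drug metabolism genes in liver in response to many compounds, azoles among them. Of 21 measured targets, 8 were above (median difference 0.13). They included Cyp1a2, at 0.72, 0.63 and 0.67 (at most -0.016 on the 28), beside Cyp3a2, Cyp2c6v1, Cyp3a23-3a1, Ugt2b1 and Cyp3a9. Gstm1, Aldh1a1 and Cdkn1a were inside, and so were Por, Abcb1a and Nqo1, chosen after their values were seen. No liver arrays of the control diet were analysed here, so induction of these genes in liver RNA was not tested.

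**Figure D4:**
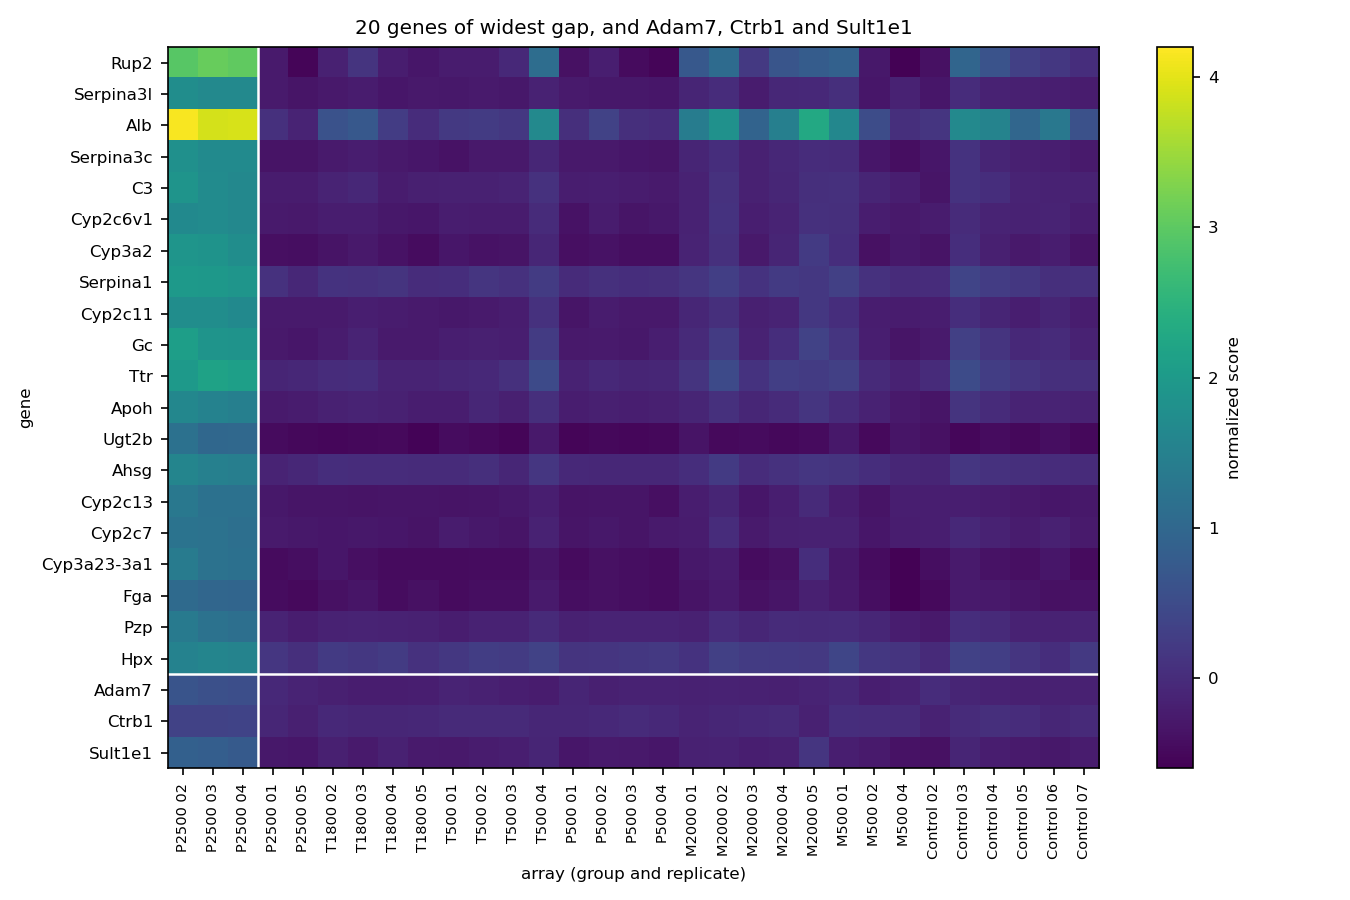
Normalized scores (colour) of the 20 genes of largest gap, and of Adam7, Ctrb1 and Sult1e1, in rows, on the 31 arrays in columns. The 3 arrays at the left form a block of high scores, and among the others Alb is brightest on M2000 05, at 2.29.

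Markers of the other liver cells were not among the set: 0 of 4 genes of Kupffer cells, 0 of 5 of sinusoidal endothelium, 0 of 7 of stellate cells and 0 of 7 of bile duct cells were above. The Kupffer cell receptor Clec4f scored 0.046, 0.11 and 0.20, against -0.040 to 0.21 on the 28, and the bile duct keratin Krt7 -0.12, -0.15 and -0.11, against -0.16 to -0.001. Over these 4 lists the median difference was 0.008, and 17 of 23 genes (73.9%) were inside, against 91.1% of all probe sets. Of the 5 endothelial genes, 2 were inside and 3 had some scores outside the range of the 28 and some not. As 1.12% of all probe sets were above, 0 on lists this short is near that share and says little about these cells. Against Control and P2500 01 and 05 only, 4 of the 23 were above, beside 602 of 31042 probe sets.

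Of 91 measured genes on 11 lists for other tissues, 3 were above, each beside others of its list that were not. Inside the range were 76 (83.5%). Over all probe sets 1.12% were above and 91.1% inside. Adam7, a membrane protein of the epididymis, scored 0.64, 0.57 and 0.56 on P2500 02, 03 and 04, -0.054 and -0.12 on P2500 01 and 05, and -0.23 to 0.006 over the 28. It was above bioB on only 1 of the 3 arrays and on none of the 28. The other 2 epididymis genes measured, Cst11 and Defb22, were inside. The mean of the list was 0.038 to 0.041 on the 3 arrays, against -0.25 to -0.17 on the 28. That mean follows Adam7, which differed by 0.74 from the mean of the 28, against -0.018 to 0.023 for the other 2. Adgrg2 and Rnase12, 2 further genes known from the epididymis and chosen after their values were seen, were also in the set. Adgrg2 scored 0.16, 0.062 and 0.050, against at most -0.073, and Rnase12 -0.092, -0.11 and -0.12, against at most -0.16. Ctrb1, a chymotrypsinogen of the pancreas, scored 0.34, 0.34 and 0.37, against at most 0.042, while the other 14 pancreas genes were not above. Slc22a8, an organic anion transporter of the kidney, scored 0.072, 0.097 and 0.045, against at most -0.006. Adgrg2, Rnase12, Ctrb1 and Slc22a8 all scored below bioB, which was 0.586 to 0.663 on the 3 arrays. No gene was above on the lists for muscle, heart, intestine, erythrocytes, lung, lymphocytes, adipocytes and accessory sex glands. On lists this short, that is near the share over all probe sets. Of 7 adipocyte genes only 3 were inside, 4 had some scores outside the range and some not, and differences ran from 0.009 to 0.235. What places Adam7, Ctrb1 and Slc22a8 in the set was not tested.

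The testis genes mostly stayed inside. Of 123 genes on 9 testis lists, 110 (89.4%) were inside the range of the 28, 3 were above and 1 below, against 91.1% inside over all probe sets, with a median difference of 0.006. Of the 100 genes of highest mean over the 28, 99 were inside and none above or below, with differences between -0.16 and 0.098. Normalization gave every array the same set of top scores, which limits how far these brightest genes can differ. All 10 housekeeping genes measured were inside. In bulk RNA, fewer cells of a type and less RNA per cell cannot be told apart.

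All 10 spermatogonial genes, 11 of 12 spermatocyte genes and 23 of 24 spermatid genes were inside. The testis lactate dehydrogenase Ldhc, which serves energy supply of spermatocytes and sperm, scored 4.04, 3.91 and 3.90, against 3.95 and 3.97 on P2500 01 and 05 and 3.79 to 4.12 over the 28. The synaptonemal complex protein Sycp3 scored 3.02, 2.95 and 2.90, against 2.67 to 3.25 over the 28. Among spermatid genes, the transition protein Tnp1, which replaces histones before protamines, scored 4.37, 4.49 and 4.52, against 3.87 to 4.52, and the tail protein Odf1 4.52, 4.52 and 4.49, against 4.24 to 4.52. The protamine Prm1 held the top rank on every array, and normalization gave it 4.66 throughout, so it carries no information here. The mean of the spermatid list was 3.26, 3.27 and 3.27 on the 3 arrays, against 3.19 and 3.27 on P2500 01 and 05 and 3.07 to 3.31 on Control arrays.

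Of 17 Sertoli cell genes 14 were inside, among them clusterin (Clu), at 3.24, 3.24 and 3.19 (2.66 to 3.26 over the 28), and the tight junction protein Cldn11, at 2.28, 2.13 and 2.13 (2.01 to 2.86). All 11 peritubular and all 10 endothelial genes were inside, as were 9 of 11 macrophage genes. Of 13 fibroblast and matrix genes 12 were inside, and Fbln1, a matrix glycoprotein, was below by 0.003: it scored 0.036, 0.044 and 0.025, against at least 0.047 over the 28. The median difference of this list was 0.103, the largest of the testis lists, and single genes ran from -0.102 to 0.404. Only 7 of its 13 genes differed by no more than 1 SD of the 28.

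**Figure D5:**
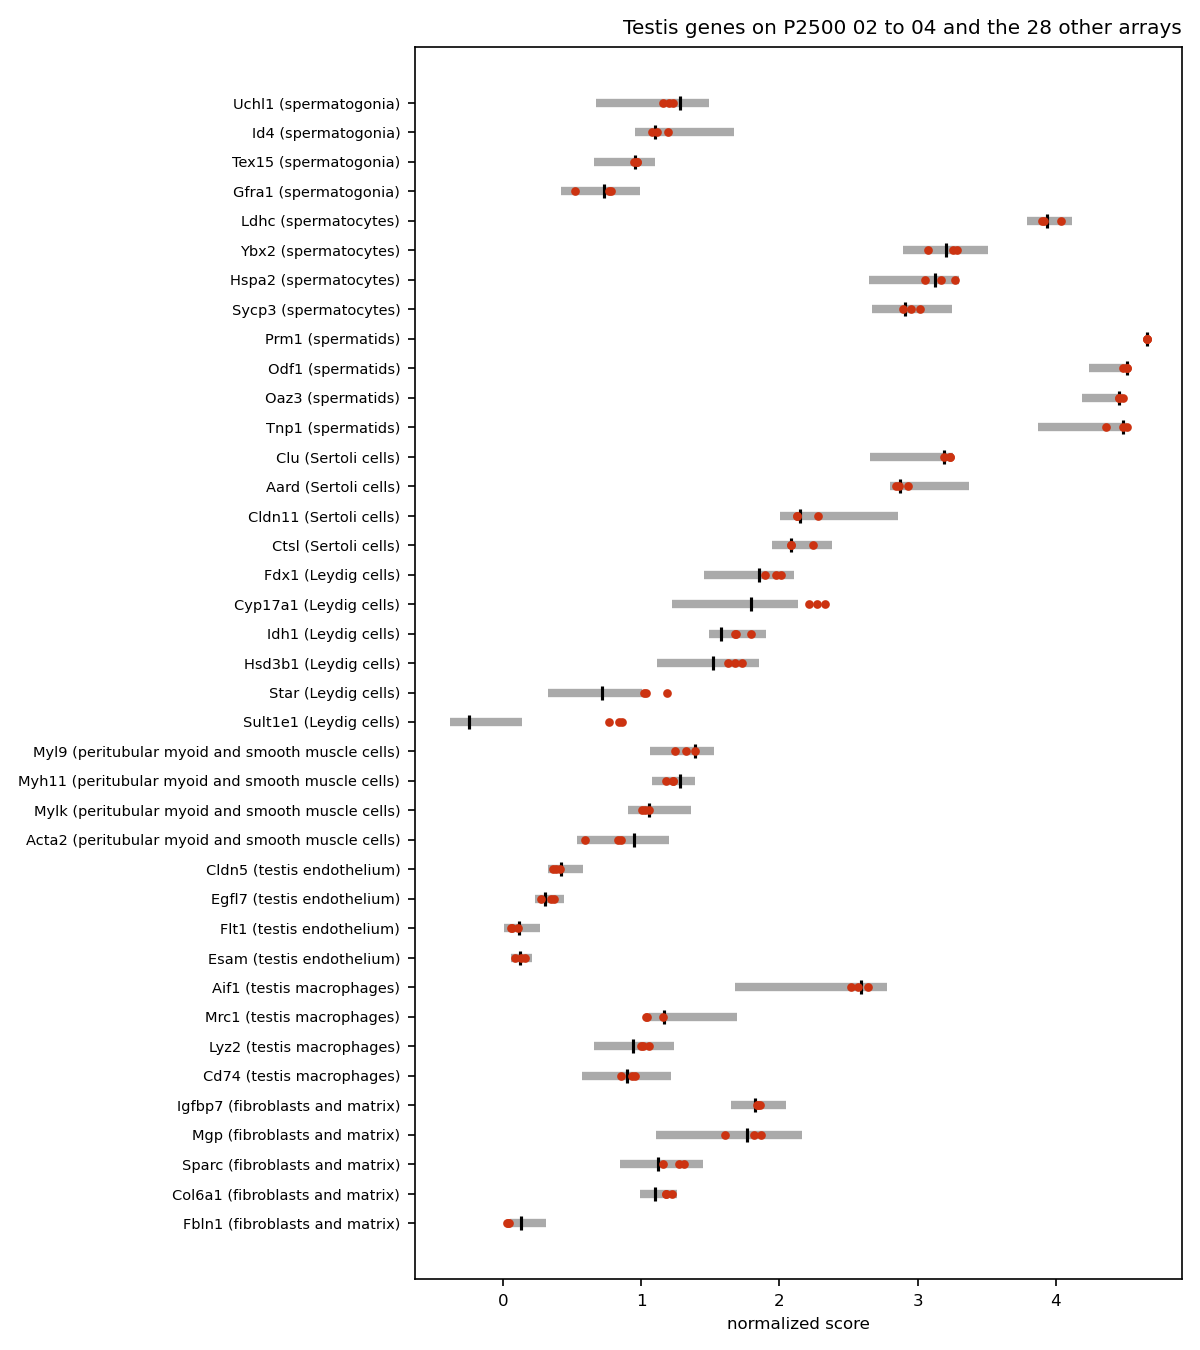
Normalized scores of testis genes on P2500 02, 03 and 04 (red points), with the range of the 28 other arrays as a grey bar and their median as a black tick. The points of the germ cell and Sertoli genes shown lie within the bars, and those of Sult1e1 and Cyp17a1 lie beyond them.

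Leydig cells made the only testis list with genes above: 3 of 16 were above and 11 inside, with a median difference of 0.095. The estrogen sulfotransferase Sult1e1, which the liver of male rats also expresses, scored 0.86, 0.84 and 0.77, against -0.39 to 0.14 over the 28. Cyp17a1, which makes androgen precursors, scored 2.33, 2.21 and 2.27, against 1.49 and 1.93 on P2500 01 and 05 and 1.23 to 2.13 over the 28. Star, which brings cholesterol into mitochondria, scored 1.19, 1.03 and 1.02, against at most 1.01, and its other probe set was not above. On the deposited scores, before normalization, Cyp17a1 and Star were not above. The mean of the Leydig list was 1.06, 1.03 and 1.03 on the 3 arrays, against 0.75 to 0.98 over the 28, with 0.85 to 0.89 on P2500 01 and 05, up to 0.98 on T500, up to 0.96 on T1800 and 0.75 to 0.89 on Control arrays. That mean includes Sult1e1, whose difference of 1.05 was the largest of the list, so it is not read as a rise of the whole list. The steroidogenic Hsd3b1 and Fdx1 were inside.

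The 16 probe sets below all others lay near the threshold, and only 1, without a name, had a gap of at least 0.1. Named ones were Acp6, Ntan1, Ints15, Ccdc77, RT1-CE5, Fbln1, Dusp22, Rasgef1a and Cdk14. RT1-CE5, a class I histocompatibility gene, scored 0.003, -0.063 and -0.14, against 0.005 to 0.60 over the 28, and the difference from the mean of the 28 was -0.40. Acp6, a lysophosphatidic acid phosphatase, scored 0.84, 0.85 and 0.85, against at least 0.89. Just inside the set above were Hhex, Rcan1 and Rtp4, with gaps of at most 0.001, and just outside it were Prm1, RGD1559600 and Shfl.

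Among the 3 arrays, P2500 02 stood highest for most of the set: it had the highest of the 3 scores in 237 of 349 probe sets, P2500 03 in 80 and P2500 04 in 32. The mean over the set was 0.50, 0.46 and 0.44 on P2500 02, 03 and 04, and -0.11 to -0.011 over the 28. The score on P2500 02 minus the mean of 03 and 04 had a median of 0.050 over the set, higher in 261 of 349, against -0.002 over all probe sets. Apoc1 ran the other way, with 0.87 on P2500 02 and 1.22 and 1.18 on 03 and 04, as did Apoc3, Hamp, Crp and Apoa2. The actin gap was 1.15, 0.83 and 0.92 on P2500 02, 03 and 04, and 0.70 to 1.67 over the 28. Its part in the order of the 3 arrays was not tested. Across all probe sets, P2500 03 and 04 correlated at 0.998, and each of them with P2500 02 at 0.992.

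Liver genes were not flat on the 28. The order of Alb among them began with M2000 05 (2.29), M2000 02 (1.83), T500 04 (1.66), Control 03 (1.65), M500 01 (1.62) and Control 04 (1.55), steps without replicate error since each is 1 array. It ended with P500 04 (0.016), T1800 05 (0.004) and P2500 05 (-0.12), and P2500 01 (0.062) ranked 22 of 28. By group, Alb ran from -0.12 to 0.062 in P2500 01 and 05, 0.92 to 2.29 in M2000, 0.051 to 1.62 in M500, 0.016 to 0.35 in P500, 0.18 to 1.66 in T500, 0.004 to 0.71 in T1800 and 0.13 to 1.65 in Control, so most groups overlapped. The highest score of the 28 fell on M2000 05 for 54 members of the set, on Control 03 for 37 and on M500 04 for 33.

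Across the 28, the genes whose scores were most like those of Alb were Gc (Pearson's r = 0.952, Spearman's rho = 0.915), Rup2 (0.949 and 0.951), Cyp3a2 (0.934 and 0.921), Cyp2c11 (0.926 and 0.877) and Serpina3c (0.925 and 0.911). Without M2000 05 and M2000 02, the 2 arrays farthest from the median of Alb, r over the remaining 26 was 0.932, 0.957, 0.916, 0.897 and 0.91. All of these points share their arrays and normalization. For other members the r with Alb was 0.883 for Ttr, 0.815 for Serpina1, 0.753 for Sult1e1, 0.73 for Fgb, -0.10 for Cyp17a1, 0.053 for Ctrb1 and -0.049 for Adam7.

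Propiconazole at 2500 ppm was compared with the 0 ppm diet without and with the 3 arrays. P2500 01 and 05 against the 6 Control arrays gave 0 of 31042 probe sets (0.0%) past an adjusted p of 0.05 by limma, with 1187 (3.82%) under an unadjusted p of 0.05. Of the 349 set members, 16 (4.58%) were under that p, 142 were higher and 207 lower. Their median difference was -0.009, against -0.001 over all probe sets. Alb averaged -0.031 ± 0.13 in P2500 01 and 05 (SD, n = 2) and 1.04 ± 0.59 in Control (SD, n = 6), a difference of -1.07 that was not called. These 2 arrays are what the choice by liver genes left of the group, so this difference and the counts of members are a description. The genes of smallest p were Mrpl43, LOC100912510 and Ostf1, higher, and Tmem163, Angpt1 and Zswim3, lower, none of which passed.

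All 5 P2500 arrays against Control also gave 0 calls (0.0%) by limma, with 1289 (4.15%) under an unadjusted p of 0.05, of which 329 were set members. This contrast uses the scores that chose the arrays and the members, so its values are a description, and no p is given for single members. Alb averaged 2.38 ± 2.20 in P2500 (SD, n = 5) and 1.04 ± 0.59 in Control (SD, n = 6). The difference was 1.02 for Serpina1, 1.07 for Cyp2c11 and 0.44 for Adam7. Without P2500 01, limma made 268 calls (0.863%), and without P2500 05 it made 283 (0.912%). The 3 arrays then formed 3 of 4 in the group, so that the choice of arrays bears on these counts, and nothing is read from them about the members.

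The other exposed groups were set against the same Control arrays, with the 3 arrays left out of the fit. By limma there were 0 calls (0.0%) in each of M500, M2000, P500 and T500, and 2 (0.00644%) in T1800, Arhgef28 and S100b, neither a member of the set. The share of members under an unadjusted p of 0.05 was 7.16% in M500 (8.44% of all probe sets there), 5.73% in M2000 (1.55% of all), 8.02% in P500 (3.19%), 6.88% in T500 (6.89%) and 10.3% in T1800 (5.29%). Members share their arrays and normalization, and their choice used the highest scores of these arrays, so the shares are a description. Of the 349 members, 279 were higher than Control in M2000, 208 in T500, 195 in M500, 167 in T1800 and 155 in P500. Their median differences were 0.020, 0.008, 0.005, -0.002 and -0.005 in that order, against -0.003 to 0.001 over all probe sets. How many of all probe sets were higher was not counted. Alb averaged 1.59 ± 0.51 in M2000 (SD, n = 5) and 1.04 ± 0.59 in Control (SD, n = 6), with a limma adjusted p of 1.

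Probe sets of 1 gene did not always go together. Of the set's 292 genes, 60 had several probe sets, and 43 of these had at least 1 outside the set. The dimmer of the Fgb probe sets were inside the range, while the brighter Pon1 probe set was inside (-0.18, -0.21 and -0.15) and another had a gap of 0.81. Over the set, 104 probe sets had a mean of the 3 above bioB, and 11 had a mean of the 28 above it. On P2500 02, 03 and 04, 111, 107 and 94 probe sets of the set were above bioB, and on the 28 others 4 to 28. Members were chosen for being higher on the 3 arrays, so these counts are a description. Over all probe sets, 21%, 21.4% and 19.3% were above bioB on the 3 arrays. The score of bioB itself was 0.586 to 0.663 on the 3 and 0.557 to 1.412 on the 28.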

How the data were processed

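Testis RNA of 31 rats was measured on 1-colour Affymetrix arrays. The deposited values are scores on a log-like scale that the authors processed further: their background correction, summary method, log base and centring are not stated in the labels. Labelling with biotin followed oligo-dT priming, per the labels' protocols. No counts exist, so the number of arrays limits the precision. The authors' scores were quantile-normalized over 31 arrays and control probe sets were dropped, which left 31042 probe sets. In the platform annotation 20826 of these had 1 gene symbol, and 20758 matched RefSeq.

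A gene is shown by its probe set, with 1 symbol, of highest mean over 31 arrays. Groups came from the sample titles. The 3 arrays were set against the 28 by range alone. Group contrasts, with the spread shared over all groups in the fit, were fitted with limma 3.58.1 in R 4.3.3 over all probe sets, with Benjamini-Hochberg adjustment at 0.05, and checked on simulated data. Nothing states that replicates came from separate litters, so p-values measure the spread between these animals.

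The members and lists were chosen with earlier results of these data known. Named genes are the 5 markers, the 20 of largest gap, per liver list up to 6 of largest and 3 of smallest gap, per list of another tissue up to 3 of largest gap, per testis list the 4 of highest mean and any outside the range, the 10 farthest below, 3 on each side of the threshold, per contrast the genes called or else 3 of smallest p in each direction, and the 5 most like Alb. Other scales, filters, weights and arrays left out were tried as alternatives.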

Additional observations from a re-analysis of the deposited data

Results flagged for a closer look

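Of 54 sets of values screened by group, 5 had 1 array far from the others of its group, and chance flags about 1 in 20 groups. Alb on T500 04 was 1.66, against at most 0.23 on the other T500 arrays, and Rup2 on the same array was 1.11, against at most -0.045. Alb on P500 02 was 0.35, against at most 0.046 on the other P500 arrays. Adam7 on Control 02, an array with a wide range of deposited scores, was 0.006, against at most -0.11 on the other Control arrays. The actin gap on M2000 05, the array with the highest Alb of the 28, was 1.47, against at most 0.95 on the other M2000 arrays. Whether these values share a source was not tested.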

How the results depend on the processing

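Of 349 probe sets above the other arrays, 280 were found on the deposited scores (279 of them shared), 316 after scaling by the median absolute deviation (311 shared), 408 without arrays of high actin gap, and 380 to 388 when 1 of the 3 arrays was left out in turn. Requiring a gap of 0.1 left 203, a filter on dim probe sets 123, and setting the 3 arrays against only Control and P2500 01 and 05 gave 602. The 16 below were less stable: 29 on the deposited scores (8 shared), 54 without arrays of high actin gap, 8 with 1 probe set per gene, 1 with a gap of 0.1, 199 against Control and P2500 01 and 05 only, and 37 to 98 with 1 of the 3 left out (98 without P2500 02). Of 123 testis list genes, 3 were above, against 1 on deposited or scaled scores and 12 against Control and P2500 01 and 05 only. Inside the range were 110 of them, against 109 on deposited or scaled scores and 99 without arrays of high actin gap. Against Control and P2500 01 and 05 only, 82 were inside, and a range over fewer arrays can only be narrower. Of 279 liver list genes, 164 were above, against 145 on deposited scores and 52 with the filter on dim probe sets, which tests fewer genes. Over 224 recomputed gaps of 21 genes, 220 kept their sign. The gap threshold, the dim filter and 1 probe set per gene cannot change the gap of a gene. Leaving arrays out can only raise it, so a positive gap could turn negative only on deposited or scaled scores. The 4 that did so were Cyp17a1, at -0.47 on deposited and -0.491 on scaled scores, and Star, at -0.155 and -0.145. The cause was not tested. P2500 01 and 05 against Control gave 9 calls without the 2 arrays of widest deposited scores, an alternative chosen after seeing the data, and 0 to 2 with 1 array left out (2 without P2500 01, 1 without Control 02). All 5 P2500 arrays against Control gave 882 with array weights, 50 with the actin gap as a covariate, 1 with the filter on dim probe sets, 1 with the 2 groups alone, and 0 to 283 with 1 array left out (283 without P2500 05, 268 without P2500 01). Members called in the other exposed groups numbered 10 with array weights and 0 to 1 with 1 array left out (1 without M500 01 and 1 without T1800 05). Deviations from the group mean on same-numbered P2500 and Control arrays correlated at 0.09, 0.574, 0.522 and -0.682. They cannot show whether the numbers pair rats, since those of P2500 also hold the difference between the 3 arrays and the others. With the replicate number as a block, P2500 gave 1 call over all 5 arrays and 0 for 01 and 05. Probe sets at the dim end of the arrays are limited by background, as most members are on the 28.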

Other observations

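Genes of the set outside the lists, chosen after their values were seen, included several of peroxisomes and of fat oxidation. Catalase (Cat), which breaks down hydrogen peroxide, scored 1.242, 1.204 and 1.213 on P2500 02, 03 and 04, 0.35 and 0.64 on P2500 01 and 05, and at most 0.69 over the 28. Pecr, a reductase of peroxisomes, scored 0.63, 0.58 and 0.58, against at most 0.28, and Acadm, which oxidises medium-chain fats, 0.52, 0.46 and 0.49, against at most 0.39. Gulo, the last enzyme of vitamin C synthesis in rats, scored 0.14, 0.093 and 0.070, against at most -0.14, and its other probe set was also above.

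The polymeric immunoglobulin receptor Pigr, which carries IgA across epithelia and, in rats, into bile, scored 0.53, 0.72 and 0.65, against at most -0.14. Fibronectin (Fn1), a matrix protein that the liver also secretes into plasma, scored 0.61, 0.55 and 0.53, against at most 0.21. The keratins Krt8 and Krt18, the pair that hepatocytes carry, were both above, Krt18 at 0.36, 0.33 and 0.30 (at most 0.17 over the 28) and Krt8 at 0.025, -0.028 and -0.025 (at most -0.11). The salivary and liver amylase Amy1 differed among the 3 arrays, with 0.22 on P2500 02 and -0.020 and -0.037 on 03 and 04, against at most -0.40.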
